A study of Rattus norvegicus with 2 samples.

Results

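The cells described here are epithelial cells of the fetal rat colon that held transcripts of Shh and Mdk together with Tdh or Fscn1, and few transcripts of goblet, defensin, Olfm4, distal surface or proximal enterocyte genes. They numbered 426 of the 14115 barcodes kept in all, with 254 of 6879 in the control library and 172 of 7236 in the maternal obesity library. Barcodes under 500 genes, or above 20% mitochondrial UMIs (unique molecular identifiers, each counting 1 captured transcript), had been dropped. A kept barcode was taken as epithelial with UMIs in at least 4 of the 7 genes Epcam, Cldn7, Cldn4, Cldn3, Elf3, Vil1 and Lgals4 and no more than 3 UMIs of Col1a1 and Col3a1 together, which left 3258 control and 1597 maternal obesity cells. Of these, 445 and 310 had a UMI of Shh, 371 and 261 also of Mdk, and 323 and 230 also of Tdh or Fscn1. Limits of 5 UMIs per 10000 on Muc2 with Fcgbp, on the alpha-defensins Defa8, Defa9 and Defal1, and on Olfm4, and of 10 per 10000 on Sftpd with Scgb1a1 and Aqp3, left 310 and 224. The last step, fewer than 3 of the 5 proximal enterocyte genes Mep1a, Mep1b, Otc, Enpep and Apoc2, left 254 and 172, called Shh/Tdh cells below.

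Shh is the secreted ligand by which gut epithelium signals to the mesenchyme under it, where Ptch1 receives it and Gli factors carry the response. Mdk (midkine) is a heparin-binding growth factor of embryonic tissues, Tdh is the mitochondrial enzyme that begins the breakdown of threonine to glycine and acetyl-CoA, and Fscn1 (fascin) bundles actin filaments. Igfbp2 binds insulin-like growth factors outside the cell and Tead2 is a DNA-binding partner of the Hippo effectors Yap1 and Wwtr1. The fetal colon lining at this age is turning from a uniform layer into crypts with goblet, endocrine and absorptive cells.

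The study profiled wild-type (WT) rat colon at stage E19.5 by droplet single-cell RNA sequencing (10x Genomics), with a control library and a library from offspring of dams obese in pregnancy. There was 1 library per group, so no difference between the libraries could be tested against replicate spread, and the intervals given below cover counting error only. How the obesity was brought about and how many fetuses or litters made up a library were not given in the sources used here. The tissue was dissociated enzymatically and red cells were lysed before loading.

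The kept barcodes held 92471410 UMIs in the control and 103848108 in the maternal obesity library. Shh/Tdh cells were deep, with a median of 24463 UMIs and 4671 genes in the control and 29604.5 UMIs and 5314 genes in maternal obesity, against 13633 and 20693 UMIs in the other epithelial cells. The rule asks for detected UMIs, so it takes deep cells more readily. Epithelial cells with 3 or more of the proximal genes were deeper still, at a median of 28298 and 32070.5 UMIs. The median mitochondrial share of Shh/Tdh cells was 1.63% and 2.10%, against 2.55% and 2.78% in the other epithelial cells. Haemoglobin and other erythroid markers summed to 5907 and 10729 CPM in them (UMIs scaled to the same total in each cell class and library), below the 71243 and 156534 CPM of the non-epithelial barcodes. No Shh/Tdh barcode was shared between the libraries, although 80 kept barcodes were. Scrublet called 2 control and 3 maternal obesity Shh/Tdh cells doublets. It called 0.87% and 1.85% of all kept barcodes, where 7.12% and 7.77% were expected. Among the highest scores, taken up to the expected share, were 14 and 10 Shh/Tdh cells.

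Shh/Tdh cells were 7.80% of the control epithelial cells (exact binomial 95% interval 6.90 to 8.77%) and 10.8% of those of maternal obesity (9.29 to 12.4%). The rule asks for detected UMIs, so the share moved with depth. With each cell thinned to 10000 UMIs it was 7.72% (6.62 to 8.94%) and 9.29% (7.73 to 11.03%), whose intervals overlap, and with 3000 UMIs it was 2.19% (1.67 to 2.82%) and 2.58% (1.79 to 3.59%). The cells around them differed more between the libraries. Cells past the distal limit of the rule were 18.7% of epithelial cells in the control and 3.19% in maternal obesity, and cells with 3 or more proximal genes were 12.2% and 38.2%. A ratio of Shh/Tdh cells to other epithelial cells therefore has a different mixture in its denominator in each library.

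The genes that chose the cells are given as a description. Shh stood at 126 CPM in the control and 121 CPM in maternal obesity, against 5.54 and 8.06 CPM in the other epithelial cells. Per cell it was a low transcript: the median was 1.08 and 1.09 UMIs per 10000, and 75 of 254 and 45 of 172 cells met the rule with a single Shh UMI. Mdk was the most abundant of the rule genes, at 1308 and 1411 CPM against 137 and 149 CPM. Tdh stood at 208 and 247 CPM against 14.6 and 28.5 CPM, and was detected in 88.6% and 94.8% of the cells. Fscn1 stood at 124 and 167 CPM against 23.7 and 25.8 CPM, and was detected in 91.3% and 95.3%. Both could be absent from a cell alone but not together.

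Cells just outside the rule held the same genes, mostly at lower levels. In the control 281 cells and in maternal obesity 136 cells lacked only Shh; their median depth was 15614 and 17230 UMIs. Without a Shh UMI they still held Mdk at 646 and 617 CPM, Tdh at 85.1 and 129 CPM and Fscn1 at 131 and 133 CPM. Cells that passed all but the proximal limit, 56 and 52 in number, held Shh at 49.6 and 62.9 CPM and Mdk at 536 and 739 CPM. The 25 and 9 cells that lacked only Tdh and Fscn1 had less Mdk, 371 and 164 CPM. Of these levels those of Fscn1 in cells without a Shh UMI came nearest to the 124 and 167 CPM of the Shh/Tdh cells.

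**Figure D1:**
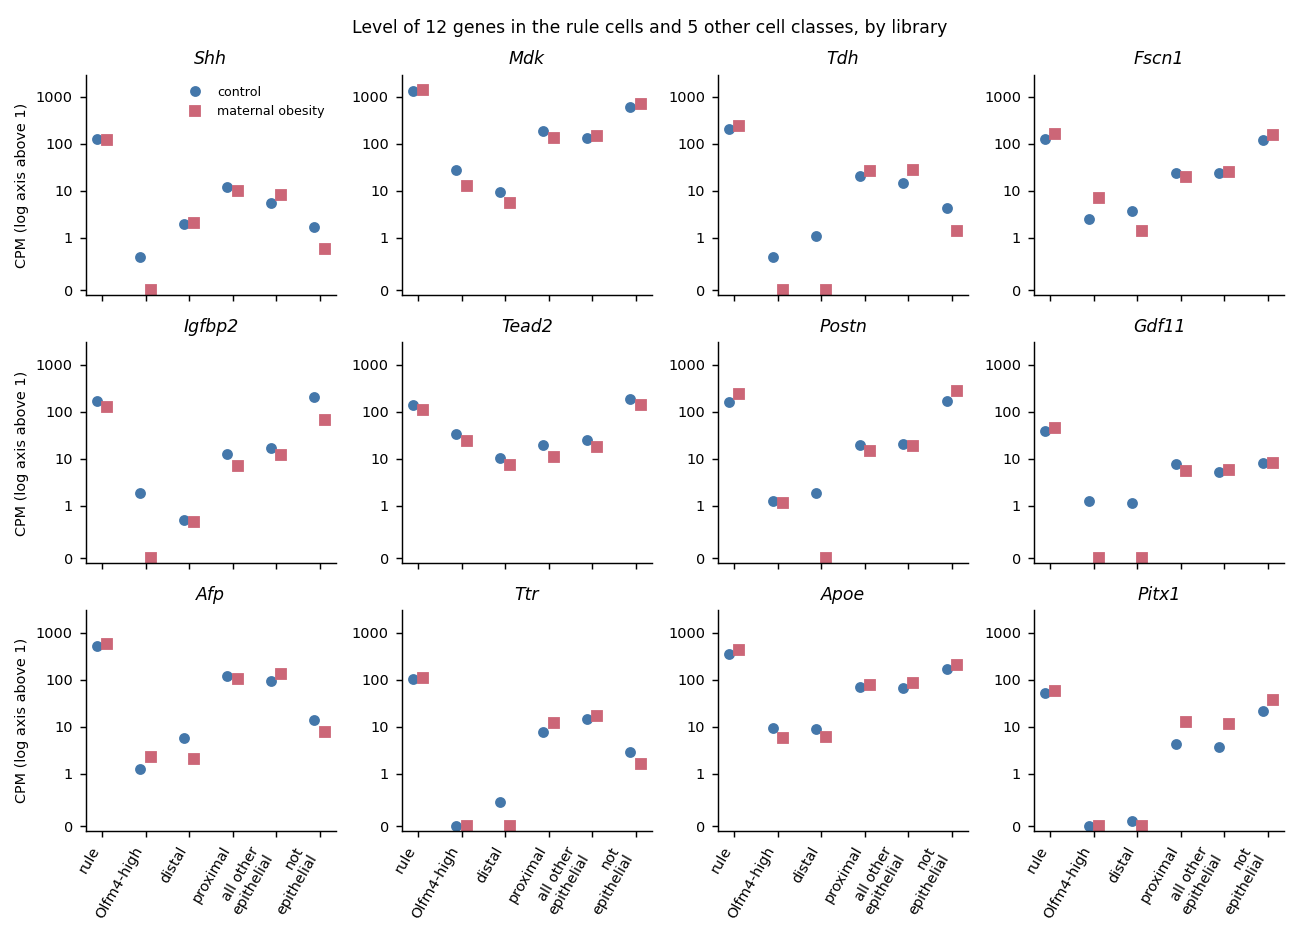
Level in CPM, on an axis that is logarithmic above 1, of 12 genes in Shh/Tdh cells (labelled rule), in Olfm4-high, distal and proximal epithelial cells, in all other epithelial cells and in non-epithelial barcodes; circles are the control and squares the maternal obesity library, with no replicates. In both libraries each gene is higher in Shh/Tdh cells than in the 4 epithelial classes, as for Mdk at 1308 and 1411 CPM, whereas outside the epithelium Mdk (610 and 724 CPM), Fscn1 (124 and 158 CPM), Igfbp2, Tead2 and Postn also have high levels, and Shh and Tdh are under 5 CPM.

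Igfbp2 and Tead2 were named as markers but took no part in the rule, and both were high in both libraries. Igfbp2 stood at 175 CPM in the control and 126 CPM in maternal obesity, against 17.0 and 11.99 CPM in the other epithelial cells, a ratio of 10.3 (9.43 to 11.3) and 10.5 (9.37 to 11.9). It was found in 80.3% and 76.2% of the cells. Tead2 stood at 142 and 108 CPM against 25.6 and 17.5 CPM, a ratio of 5.57 (5.12 to 6.06) and 6.16 (5.52 to 6.88). Outside the epithelium Tead2 was higher still, at 191 and 143 CPM, and Igfbp2 was higher in the control and lower in maternal obesity, at 212 and 68.1 CPM. In the Olfm4-high cells of the same libraries, 74 and 29 in number, Igfbp2 stood at 1.92 and 0 CPM and Tead2 at 34.6 and 24.6 CPM.

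Over all genes, a gene was called higher or lower when its ratio to the other epithelial cells was at least 1.5-fold in the same direction in both libraries, with at least 20 UMIs in the Shh/Tdh cells of each. Of 9442 genes tested, 723 (7.66%) were called higher and 635 (6.73%) lower; with each cell weighted equally the higher calls made up 39.2% of all calls instead of 53.2%. The cells were chosen from the same counts, so these calls are a description and not a test. In the lists below, counts of genes called against other epithelial cells stand against these 7.66% higher and 6.73% lower. A gene nearly absent from Shh/Tdh cells has too few UMIs to be counted as tested, and such genes are given by their levels. Against proximal cells alone 8.83% of the genes were called higher and 5.25% lower, against Olfm4-high cells 11.9% and 12.3%, and against distal cells 16.1% and 13.8%. Proximal cells had 12.8 and 6.93 CPM of Igfbp2 in the control and in maternal obesity, which put the log2 ratio of Shh/Tdh to proximal cells at 3.76 and 4.18. For Gdf11 they had 7.86 and 5.50 CPM, with log2 ratios of 2.34 and 3.01. For Pitx1 they had 4.28 and 12.7 CPM, with log2 ratios of 3.57 and 2.20.

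Among the genes with the largest ratios, several encode secreted or fetal plasma proteins. Postn (periostin, a matrix protein) stood at 159 and 239 CPM against 20.8 and 18.7 CPM in the other epithelial cells. Ttr, a carrier of thyroid hormone and retinol-binding protein, stood at 103 and 111 CPM against 14.7 and 17.1 CPM. Apoe, an apolipoprotein, stood at 347 and 421 CPM against 65.8 and 86.5 CPM, and Apom, another, at 16.4 and 15.9 CPM against 2.22 and 2.94 CPM. Ttr was almost absent outside the epithelium, at 2.89 and 1.60 CPM, whereas Apoe stood there at 170 and 212 CPM and Postn at 171 and 273 CPM. Of the defining fibroblast genes, Lum, Pdgfra and Mfap4 had 0 UMIs in the Shh/Tdh cells of both libraries, and Dcn had 0 in the control and 0.16 CPM in maternal obesity against 120 and 354 CPM outside the epithelium. The 3 fibroblast markers with enough UMIs to be tested, Postn, Fbln1 and Col5a1, were all called higher than in other epithelial cells. All 11 together summed to 276 and 341 CPM, most of it Postn and Fbln1, against 61.8 and 76.2 CPM in other epithelial cells and 3411 and 5677 CPM in non-epithelial barcodes. The part of fibroblast RNA in these levels was not tested.

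Other genes with large ratios were of several kinds. Gdf11, a TGF-beta family ligand that patterns the axis of the embryo, was at 40.1 and 44.6 CPM against 5.34 and 5.95 CPM, a ratio of 7.50 (6.32 to 8.89) and 7.48 (6.25 to 8.98). Pitx1, a homeobox factor of the hindlimb, was at 51.4 and 58.2 CPM against 3.82 and 11.4 CPM. Fxyd2, a subunit that regulates the sodium pump, was at 15.1 and 10.98 CPM against 1.35 and 1.73 CPM, and Gulo, which makes vitamin C, at 9.76 and 15.1 CPM against 1.66 and 3.32 CPM. The other genes that the naming rule gave as high were Plppr1, Mtmr7, Spag6, Acsf2, Spock2, Fkbp10, Serpinf1, Il12rb2 and Hoxb8, at 7.32 to 40.8 CPM in the control and 8.12 to 56.8 CPM in maternal obesity. Their ratios were 5.08 to 13.3 and 4.87 to 10.8.

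The genes lowest in Shh/Tdh cells included several that are high in distal cells, which the rule leaves out, so their low levels follow in part from it. Chgb, a granin of endocrine granules, had 3 UMIs in each library (0.431 and 0.477 CPM) against 160 and 157 CPM in the other epithelial cells. Lpo (lactoperoxidase), Abo3 (a blood group glycosyltransferase), Muc4 (a membrane mucin) and Tlr4 (the endotoxin receptor) had 0.287 to 1.29 CPM in the control and 0 to 0.477 CPM in maternal obesity; in distal cells they stood at 22.3 to 136 CPM and 31.8 to 231 CPM. Lrrc26, Cwh43 and Hpse had 0 or 1 UMI in each library. Il22 and Hpse had 0 UMIs in both, where 3 UMIs would be 0.431 and 0.477 CPM. Defa6, Fcnb and Nefm, genes of defensin-secreting, granulocytic and neuronal cells, had 0 or 1 UMI.

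**Figure D2:**
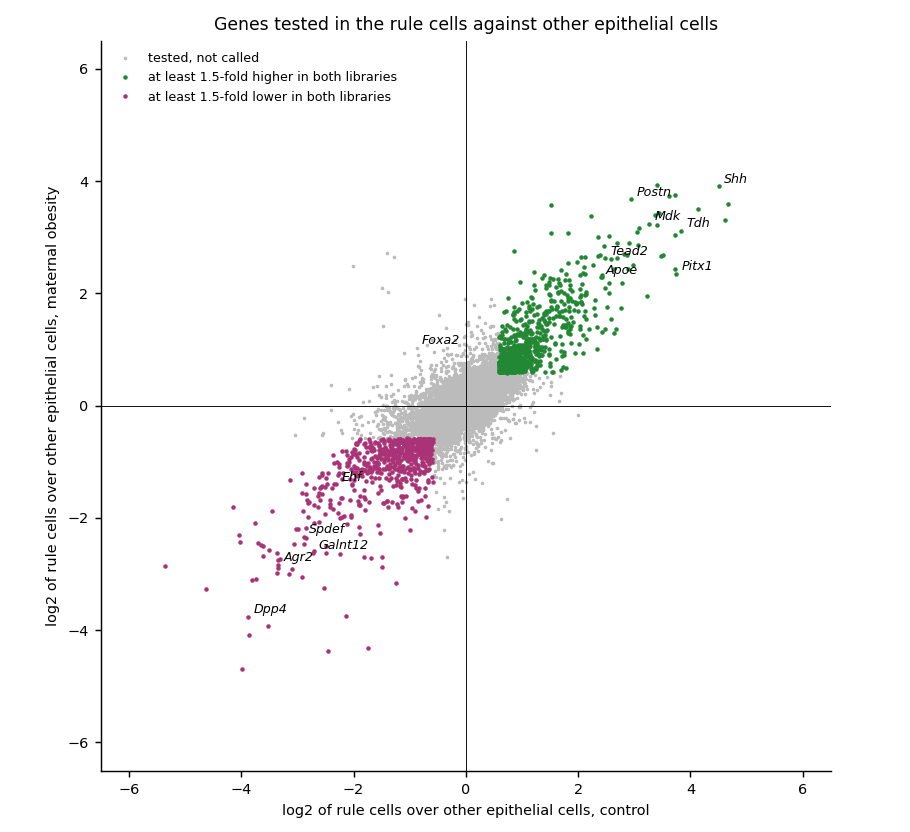
Each point is a tested gene, placed by its log2 ratio of Shh/Tdh cells to other epithelial cells in the control (horizontal) and in maternal obesity (vertical). Green and purple points are the 723 and 635 genes at least 1.5-fold higher or lower in both libraries; most genes lie near 0 or along the diagonal, and Foxa2 lies in the quadrant where the libraries differ in sign.

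Among Hedgehog genes the ligands were measured and most genes of the response were not. Ihh, the other gut ligand, stood at 44.8 and 48.5 CPM against 42.8 and 37.8 CPM in the other epithelial cells and was not called. Disp1, which releases the ligand, stood at 13.1 and 14.6 CPM. The receptor Ptch1 was at 10.0 and 14.5 CPM and was not called; Smo, the signal transducer at the membrane, was at 8.76 and 10.98 CPM against 5.70 and 6.47 CPM and was called higher. Of the transducers and targets, Gli1, Gli2 and Foxl1 had 0 UMIs in both libraries, as did the ligand-binding genes Gas1 and Hhip. Of 3 ligand and release genes tested 1 was called, Shh itself, which the rule requires, and of 2 receptor genes tested 1.

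Of the midkine family and its receptors, 3 of 8 tested genes were called higher and 0 lower: Mdk, Gpc3 and Gpc1. The rule requires Mdk, and without it 2 of 7 were called. The glypican Gpc3, a fetal cell-surface proteoglycan, stood at 39.2 and 64.1 CPM against 9.85 and 19.9 CPM. The related ligand Ptn was at 3.01 and 2.39 CPM, and the receptor genes Ptprz1 at 0.574 and 0.796 CPM and Alk at 0 UMIs. Ncl (nucleolin) and Sdc1 and Sdc4, which also bind midkine, were expressed at 789 and 885 CPM, 66.5 and 75.4 CPM and 63.7 and 71.9 CPM without being called.

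Besides Tdh, several genes of serine and glycine metabolism were higher. In the list of threonine, glycine and one-carbon enzymes 6 of 17 tested genes were called higher and 0 lower, with a median log2 ratio of 0.46 and 0.41. Without Tdh, which the rule uses, they were 5 of 16, with a median of 0.43 and 0.37, against a median of 0.04 and 0.08 over all genes tested. Gldc and Amt, subunits of the glycine cleavage system that takes glycine further, stood at 6.46 and 8.43 CPM against 0.772 and 1.15 CPM, and at 49.0 and 49.6 CPM against 22.4 and 23.5 CPM. Phgdh and Psat1, the first enzymes of serine synthesis, stood at 177 and 196 CPM against 68.5 and 86.7 CPM, and at 122 and 233 CPM against 53.8 and 94.9 CPM. Mthfd1l, a mitochondrial one-carbon enzyme, was the sixth. Gcat, which completes the reaction that Tdh starts, was at 21.4 and 15.8 CPM against 21.8 and 22.9 CPM and was not called, nor were the hydroxymethyltransferases Shmt1 and Shmt2. The whole list, Tdh included, summed to 1277 and 1471 CPM in Shh/Tdh cells. It summed to 1116 and 989 CPM in Olfm4-high cells and to 967 and 981 CPM in proximal cells, so high levels were not particular to Shh/Tdh cells.

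Of the actin and brush border genes 4 of 13 tested were higher, Fscn1, Pls3, Tmsb4x and Marcksl1, and 1 was lower, the brush border cadherin Cdhr5. Without Fscn1 and Vil1, which chose the cells, 3 of 11 were higher and 1 lower. Pls3, an actin bundler of non-brush-border cells, stood at 19.2 and 19.6 CPM against 5.72 and 5.57 CPM. Its brush border relative Pls1 stood at 42.1 and 64.8 CPM against 54.0 and 74.8 CPM, and Vil1, which the epithelial gate uses, at 179 and 205 CPM against 192 and 246 CPM. Cdhr5 was at 20.5 and 18.8 CPM against 45.2 and 46.6 CPM.

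In the IGF axis 3 of 8 tested genes were higher, Igfbp2, Igfbp4 and Igfbp5, and 1 was lower, Igfbp7. The Igfbp5 call changed direction, in the control with each cell weighted equally (log2 ratio -0.33) and in maternal obesity with the rule applied at 10000 UMIs (-0.13). Igfbp4 stood at 131 and 137 CPM against 56.7 and 26.5 CPM. The growth factor Igf2 was at 530 and 595 CPM against 322 and 619 CPM, so its ratio was 1.64 in the control and 0.961 in maternal obesity. Of 15 tested Hippo and TEAD genes 2 were higher, Tead2 and Tead1. Tead1 was low, at 5.60 and 9.07 CPM against 3.36 and 5.24 CPM, and its ratio fell below 1 in both libraries when each cell was weighted equally. Of 10 tested targets of TEAD and Yap1, 1 was higher (Clu, 8.04 and 10.7 CPM against 4.22 and 3.24 CPM) and 3 were lower: Anxa1, Msln and Areg. Areg (amphiregulin, an EGF receptor ligand) stood at 209 and 166 CPM against 511 and 320 CPM.

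Fetal and oncofetal genes were the list with the most members called higher: 10 of 12 tested, with 0 lower and a median log2 ratio of 1.22 and 0.97. Afp (alpha-fetoprotein) stood at 522 and 565 CPM against 93.4 and 133 CPM in the other epithelial cells. Cldn6, an embryonic claudin, stood at 156 and 146 CPM against 51.8 and 68.4 CPM. The imprinted genes Peg3, Plagl1, Cdkn1c and Grb10 were all among the 10, with Peg3 at 197 and 294 CPM against 58.8 and 73.6 CPM and Grb10 at 82.4 and 133 CPM against 34.4 and 53.7 CPM. Hmga1 and Hmga2, chromatin proteins of growing tissue, stood at 129 and 192 CPM and at 96.6 and 74.3 CPM. The RNA-binding Igf2bp2 and Igf2bp3 were the 2 tested genes not called, with Igf2bp3 at 1.64-fold in the control and 1.34-fold in maternal obesity. Lin28b had 0 UMIs in both libraries. The whole list summed to 1576 and 1894 CPM in Shh/Tdh cells and to 1394 and 2085 CPM in non-epithelial barcodes, so it was not particular to them among all cells.

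**Figure D3:**
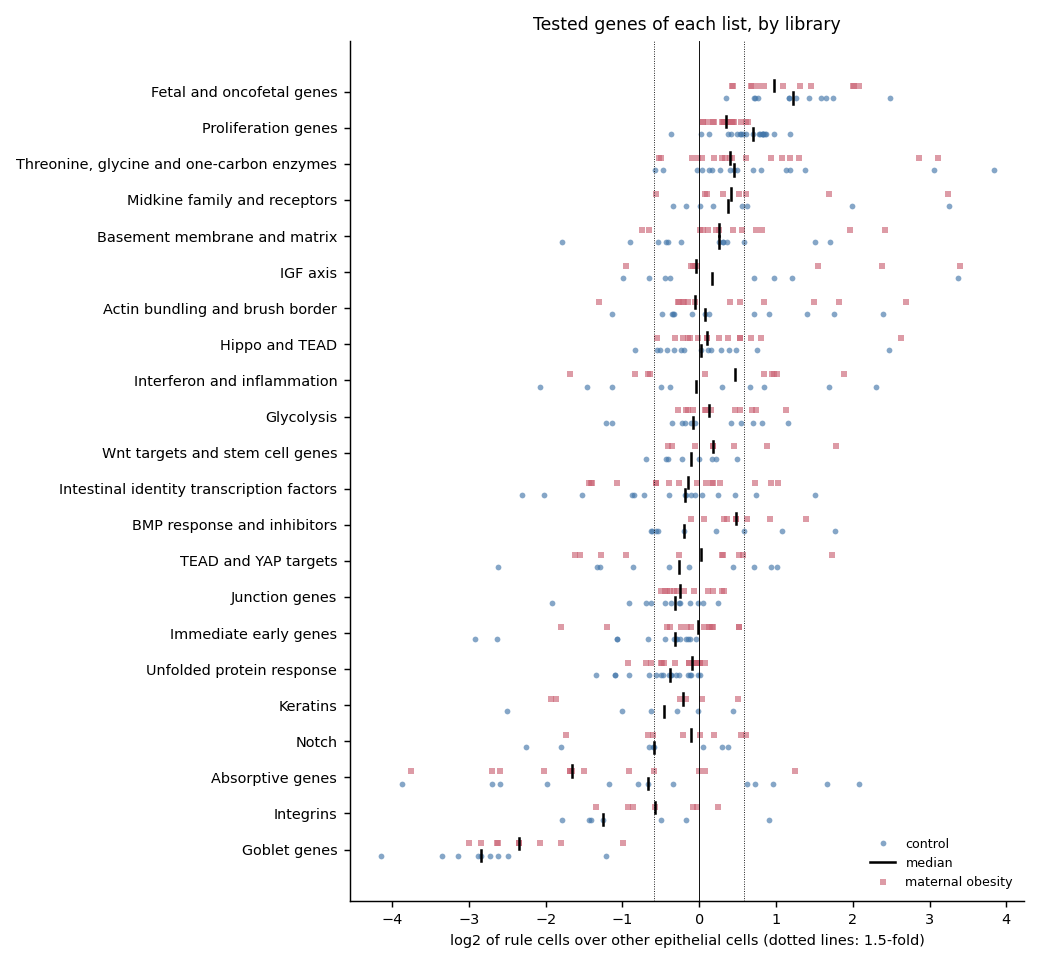
Log2 ratio of Shh/Tdh cells to other epithelial cells for the tested genes of each list with at least 5 tested; circles are the control, squares the maternal obesity library, black bars the medians and dotted lines 1.5-fold. The fetal and oncofetal genes have the rightmost medians in both libraries (1.22 and 0.97) and the goblet genes the leftmost (-2.84 and -2.35).

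Genes of mature lineages were low. All 9 tested goblet genes were lower, with a median log2 ratio of -2.84 and -2.35; the rule had limited Muc2 and Fcgbp, so other goblet genes follow in part from it. Agr2, which folds mucins, stood at 353 and 262 CPM against 3592 and 1875 CPM, and the lineage factor Atoh1 at 9.62 and 5.57 CPM against 54.5 and 34.9 CPM. Of 13 tested absorptive genes 7 were lower and 1 was higher. The rule leaves out proximal and distal cells, which stay among the other epithelial cells, so low absorptive levels also follow in part from it. Dpp4, a brush border peptidase, stood at 13.8 and 10.7 CPM against 203 and 145 CPM, and Krt20, a keratin of differentiated surface cells, at 16.7 and 35.3 CPM against 109 and 214 CPM. Anpep, another brush border peptidase, was the exception at 4.16 and 8.43 CPM against 0.989 and 3.57 CPM.

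Calls among stem cell and signalling genes stand against 7.66% higher and 6.73% lower over all genes, with few genes tested in each list. Of 24 Wnt target and stem cell genes found, only 8 had enough UMIs to be tested, and 0 were called. Sox9, a progenitor factor, stood at 133 and 159 CPM against 114 and 116 CPM, and Myc at 92.2 and 95.3 CPM against 82.4 and 84.5 CPM. Lgr5, the crypt stem cell receptor, had too few UMIs to be tested, with 1.58 and 2.23 CPM against 2.57 and 3.26 CPM. Of 8 tested Notch genes 0 were higher and 3 were lower, Jag2, Hes6 and Nrarp. Hes1, the main Notch target of the gut, was at 632 and 769 CPM against 610 and 674 CPM. Of 9 tested BMP genes 1 was higher, the inhibitor of differentiation Id2, at 204 and 220 CPM against 59.7 and 83.7 CPM.

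Of 16 tested gut identity factors 0 were higher and 3 were lower: Foxa3, Klf4 and Ehf. Cdx2, the factor that sets intestinal fate, stood at 271 and 266 CPM against 163 and 222 CPM, Hnf4a at 83.8 and 111 CPM against 94.7 and 98.5 CPM, and Klf4 at 43.9 and 26.6 CPM against 179 and 70.6 CPM. HOX genes differed along the cluster. Hoxb7, Hoxb8 and Hoxb9 were called higher, with Hoxb7 at 60.4 and 68.6 CPM against 21.0 and 45.2 CPM, whereas Hoxb13, the most posterior gene of the cluster, was at 3.88 and 2.23 CPM against 159 and 28.6 CPM. Hoxd13 stood at 0.287 and 0.159 CPM against 15.6 and 2.74 CPM and Hoxa13 had 0 UMIs in both libraries. The rule excludes distal cells, so low posterior HOX levels follow in part from it. Reads of near-identical homeobox paralogs could be split between genes, so single HOX and Pitx1 values carry that uncertainty.

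Integrin and matrix genes are named in the title of the series. The tested integrins had a median log2 ratio of -1.25 and -0.57, and the basement membrane and matrix genes of 0.26 in both libraries. Of 7 tested integrins 0 were higher and 3 were lower: Itga3, Itgb4 and Itgb6, chains of laminin and fibronectin receptors. Itgb4 stood at 22.3 and 25.9 CPM against 60.5 and 47.1 CPM, and the common chain Itgb1 at 202 and 216 CPM against 227 and 220 CPM. Of 13 tested basement membrane and matrix genes 2 were higher, Col4a1 (52.3 and 47.9 CPM against 18.4 and 12.3 CPM) and Fn1 (29.7 and 44.1 CPM against 9.14 and 8.23 CPM), and 1 was lower. The whole matrix list summed to 350 and 381 CPM in Shh/Tdh cells and to 2868 and 3126 CPM in non-epithelial barcodes. The part of fibroblast RNA in the Col4a1 and Fn1 levels was not tested. Tuft cell markers, also named in the title, were near 0: Pou2f3, Trpm5, Il25, Rgs13, Sh2d7 and Gnat3 had 0 UMIs in both libraries and all 10 summed to 1.0 and 3.3 CPM.

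All 21 proliferation genes found were tested, and 2 were called higher, Mcm7 and Stmn1; the median log2 ratio was 0.70 in the control and 0.35 in maternal obesity. Mki67 stood at 142 and 240 CPM against 183 and 233 CPM. Of 12 tested glycolysis genes 2 were higher, Pkm (1662 and 1494 CPM against 744 and 681 CPM) and Eno1. Of 18 unfolded protein response genes 2 were lower, Xbp1 and Herpud1, and of 14 immediate early genes 2 were lower, Klf2 and Nr4a1. Of 10 tested interferon and inflammation genes 4 were higher (Isg15, Irf1, Stat2 and Ccl20) and 3 lower (Cxcl10, Nfkbia and Il18). The chemokine Ccl20 was the most abundant of the 4, at 327 and 346 CPM against 101 and 176 CPM.

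Within the Shh/Tdh cells the correlations between genes ranged widely. Across cells thinned to 10000 UMIs (230 control and 166 maternal obesity cells; 24 and 6 shallower cells left out), Postn and Apoe had a Spearman correlation of 0.59 and 0.64, Afp and Apoe of 0.52 and 0.60, Afp and Ttr of 0.51 and 0.55, and Postn and Ttr of 0.36 and 0.63. Mdk and Igfbp2 correlated at 0.42 and 0.49. Shh and Fscn1 had lower values with these genes: Shh was at 0.14 and -0.04 with Apoe and 0.18 and -0.04 with Afp, and Fscn1 at 0.15 and 0.0036 with Apoe and 0.12 and -0.07 with Afp. Shh was at 0.10 and 0.12 with Tdh, 0.23 and 0.27 with Fscn1 and 0.33 and 0.30 with Mdk, and the rule sets a limit on all of these. These are descriptions over cells of 1 library each, which share its free RNA. Shh and Fscn1 had few UMIs per cell at this depth, which lowers a rank correlation. Their low values therefore cannot show that they varied apart from the other genes. At that depth Postn was found in 47.0% of the control and 43.4% of the maternal obesity cells, against 1.0% and 0% of distal cells. The median cell held 0.56 and 0.33 Postn UMIs per 10000 and the highest 17.1 and 18.3, so part of the cells carried most of the transcript.

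**Figure D4:**
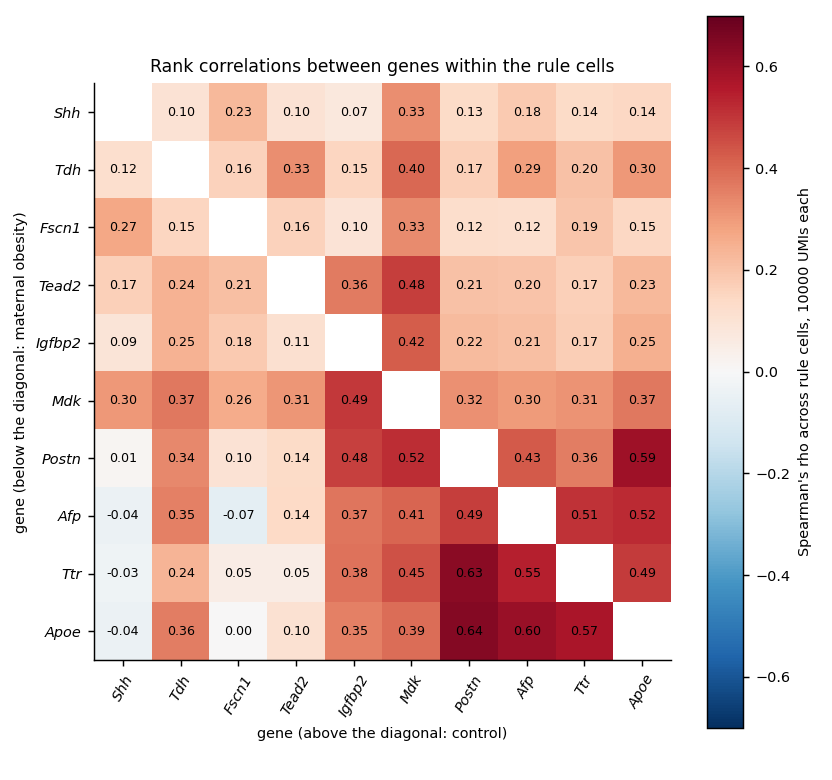
Spearman's rho between pairs of 10 genes across Shh/Tdh cells thinned to 10000 UMIs each, with 230 control cells above the diagonal and 166 maternal obesity cells below it; red is positive and blue negative. Postn, Afp, Ttr and Apoe form the block with values from 0.36 to 0.64, and Shh has values with them from 0.13 to 0.18 in the control and from -0.04 to 0.01 in maternal obesity.

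Upstream sequence is shown for Afp and Postn, of the block that varied together, and for the marker Igfbp2. RefSeq promoters of build GRCr8 matched 14 of 26 genes looked up by symbol; Shh, Mdk, Tdh and Tead2 had no match. Each run is the 250 bases before the annotated gene start, 5′ to 3′ on the strand of the gene, with a TATA box (TATAAA) or a GC box (GGGCGG), on either strand, in capitals.
Afp, chr14:17875646-17875895, minus strand: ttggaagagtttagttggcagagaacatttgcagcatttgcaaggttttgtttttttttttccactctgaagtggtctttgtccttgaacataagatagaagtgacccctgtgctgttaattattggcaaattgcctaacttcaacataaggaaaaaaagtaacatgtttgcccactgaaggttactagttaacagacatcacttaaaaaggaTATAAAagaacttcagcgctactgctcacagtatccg
Postn, chr2:140677811-140678060, plus strand: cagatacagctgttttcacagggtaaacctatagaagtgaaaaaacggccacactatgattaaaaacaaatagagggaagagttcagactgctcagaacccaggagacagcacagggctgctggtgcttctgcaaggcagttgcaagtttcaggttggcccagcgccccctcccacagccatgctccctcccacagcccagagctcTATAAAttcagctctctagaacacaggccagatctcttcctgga
Igfbp2, chr9:81864561-81864810, plus strand: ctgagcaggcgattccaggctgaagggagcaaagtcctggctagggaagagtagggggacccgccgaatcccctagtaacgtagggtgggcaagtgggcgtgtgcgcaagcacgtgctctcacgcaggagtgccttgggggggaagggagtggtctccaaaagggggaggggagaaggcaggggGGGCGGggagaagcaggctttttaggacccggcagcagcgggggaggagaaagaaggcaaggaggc
The TATA box lay 37 bases before the start of Afp and 44 before that of Postn, and the GC box 66 before that of Igfbp2, whose window was 64% G and C against 37.2% for Afp and 50.8% for Postn. Of all 33469 windows 12.9% held TATAAA and 30.5% GGGCGG; of the 14 matched genes 5 and 3 did. The motifs CATTCC (TEAD; 12.1% of all windows), ATCAAAG (TCF/LEF; 3.15%), TGTTTAC (FOXA; 3.21%), GACCACCCA (GLI; 0.338%) and CAAAGTCCA (HNF4; 0.338%) were found in 0 of the 14 on either strand.

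Across all genes with a mean of at least 0.1 UMI in cells thinned to 3000 UMIs, 35 of 3253 had a Fano factor (variance over mean) above 2 in both libraries. Agr2 and Tff3, goblet proteins, led with 6.60 and 29.6 and with 9.50 and 5.58, against a median of 1.05 and 1.04 over genes. Selenom, a selenoprotein, followed with 4.23 and 3.85, and Fos, an immediate early factor, with 3.70 and 4.06. Cxcl1, Areg, Apoe, Rbp4, Vim, Ube2c, Atf3 and Btg2 completed the 12 genes, ranked by the lower of the 2 values. At 10000 UMIs Cd74 and RT1-Da, genes of antigen presentation, led the list, but few cells carried them: Cd74 UMIs lay in 4 control and 8 maternal obesity cells.

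A few cells of maternal obesity met the rule while holding endocrine hormone transcripts. There were 3 such cells among 172 and 0 among 254 in the control. They held 3009 of the 3015 Gcg UMIs (glucagon) and 5609 of the 5615 Pyy UMIs (peptide YY) of the Shh/Tdh cells, with 93759 UMIs in all. They had 8 Shh and 6 Fscn1 UMIs and 0 of Tdh. Neurog3, the factor that starts the endocrine fate, had 56 UMIs in maternal obesity, all in 1 other cell. Without the cells of highest doublet score, the log2 ratio of Gcg to other epithelial cells in maternal obesity was -7.49 instead of 0.76.

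Between the libraries, a gene was called at least 1.5-fold higher or lower in maternal obesity with at least 20 UMIs over both. Of 10820 genes tested, 1585 (14.6%) were higher and 456 (4.21%) lower, and the median log2 ratio over all of them was 0.08. The genes of the rule were at similar levels: the ratio of maternal obesity to control was 0.962 for Shh (0.871 to 1.06), 1.08 for Mdk (1.05 to 1.11), 1.19 for Tdh (1.10 to 1.27) and 1.34 for Fscn1 (1.22 to 1.47). Each cell of both libraries had to hold Shh, Mdk and Tdh or Fscn1, so these similar levels follow in part from the rule. They cannot show whether the genes differ between the libraries. Igfbp2 and Tead2, outside the rule, were at 0.723 (0.660 to 0.791) and 0.758 (0.686 to 0.836). None of these 6 passed 1.5-fold.

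Apart from the hormone genes of the 3 endocrine cells, and among genes with at least 50 UMIs and no cell holding over 20% of them, the one whose interval lay farthest above 1 was Akr1b8, an aldo-keto reductase, at 22.7 CPM in the control and 341 CPM in maternal obesity, a ratio of 15.1 (12.8 to 17.8). It was found in 33.1% of the control and 93.6% of the maternal obesity cells. The other epithelial cells showed the gap too, with 4.61 and 111 CPM. Rtp4, an interferon-induced gene, stood at 0.718 and 8.75 CPM, and Gfra2, a co-receptor of neurturin, at 1.87 and 10.5 CPM; they too were higher in the other epithelial cells of maternal obesity, by 4.29 and 4.09 on the log2 scale. Ctnnb1 (beta-catenin, of junctions and of Wnt signalling) stood at 80.2 and 187 CPM, a ratio of 2.33 (2.10 to 2.58), and at 80.9 and 152 CPM in the other epithelial cells. Pcmt1, Hist2h4a, Ppp2ca, Tmed5, Depp1 and Mylk were 2.89 to 4.14-fold higher, and 0.70 to 1.62 on the log2 scale in the other epithelial cells.

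Asns and Pkib were higher in Shh/Tdh cells of maternal obesity but at like levels in the rest of the epithelium. Asns (asparagine synthetase) stood at 13.5 and 39.1 CPM, a ratio of 2.90 (2.28 to 3.72), and at 28.8 and 28.1 CPM in the other epithelial cells. Pkib, an inhibitor of protein kinase A, stood at 9.62 and 31.5 CPM, a ratio of 3.28 (2.47 to 4.39), and at 9.78 and 8.42 CPM in the other epithelial cells. Among the one-carbon enzymes Psat1 was higher, at 122 and 233 CPM with a ratio of 1.92 (1.76 to 2.09), and Shmt1 at 10.9 and 20.5 CPM; both were also higher in the other epithelial cells, by 0.82 and 0.93 on the log2 scale. Atf4, a factor that drives amino acid synthesis genes such as Asns, was lower, at 514 and 337 CPM. Its target Chac1 was lower too, at 53.7 and 18.1 CPM, with a log2 ratio of -0.96 in the other epithelial cells. Any link of Atf4 to the levels of Asns or Chac1 was not tested.

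**Figure D5:**
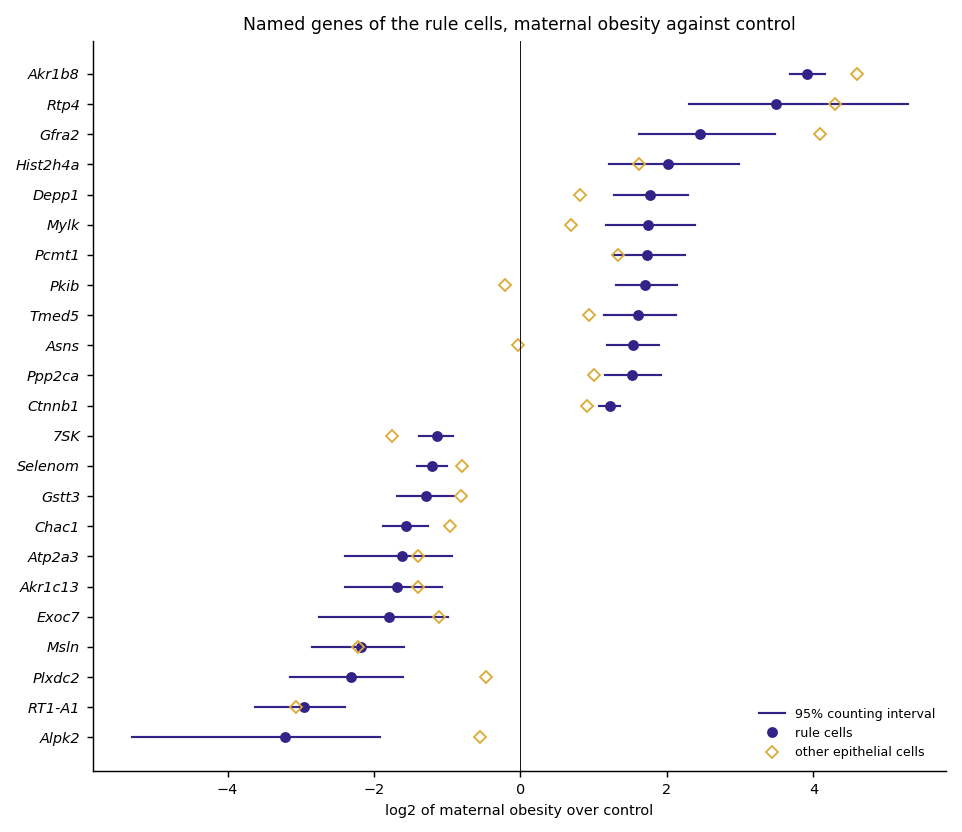
Log2 ratio of maternal obesity to control for the named genes that differed between the libraries; filled circles with bars are Shh/Tdh cells with 95% counting intervals and open diamonds are the other epithelial cells. Tacr3 is not drawn because it had 0 UMIs in maternal obesity. For Asns and Pkib the diamond lies near 0 while the circle lies at 1.53 and 1.70; for Akr1b8, RT1-A1 and Msln both lie far from 0 on the same side.

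Downward, Tacr3, the neurokinin B receptor, had 58 UMIs in 19.7% of the control cells and 0 UMIs in maternal obesity, at least 17.4-fold lower when set against 3 UMIs. RT1-A1, a class I histocompatibility gene, stood at 32.7 and 4.14 CPM, Msln (mesothelin) at 19.7 and 4.30 CPM and Plxdc2 at 14.5 and 2.86 CPM. In the other epithelial cells the log2 ratios of maternal obesity to control were -7.04 for Tacr3, -3.07 for RT1-A1, -2.22 for Msln and -0.47 for Plxdc2. RT1-A1 is one of many similar class I genes whose reads can be divided between copies. Alpk2, Akr1c13, Selenom, Exoc7, Atp2a3, 7SK and Gstt3 were 2.22 to 10.4-fold lower, with log2 ratios of -0.55 to -1.75 in the other epithelial cells.

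The lists differed in how many members were called between the libraries. Fetal and oncofetal genes had 3 of 14 tested higher and 0 lower: Grb10, at 82.4 and 133 CPM, and the low Lin28a and Dnmt3b. Proliferation genes had 2 of 21 higher, Mki67 (ratio 1.69, 1.56 to 1.83) and Top2a (1.68, 1.55 to 1.83). Integrins had 1 of 9 higher, Itga2, and basement membrane genes 0 of 14 in either direction. Goblet genes had 6 of 10 lower and 1 higher, with Galnt12, a mucin glycosyltransferase, at 35.6 and 16.9 CPM and Tff3 at 294 and 179 CPM; the other epithelial cells were lower in both too, by -1.17 and -0.86 on the log2 scale. TEAD and Yap1 targets had 0 of 10 higher and 4 lower, Anxa1, Ccn2, Ereg and Msln, with Anxa1 at 35.0 and 15.1 CPM. The whole list summed to 514 and 440 CPM in Shh/Tdh cells and to 1079 and 603 CPM in the other epithelial cells. Absorptive genes had 5 of 16 higher, Krt20 (16.7 and 35.3 CPM) among them, and 1 lower, Aqp8. BMP genes had 4 of 10 higher, the receptors Bmpr1a and Bmpr2 and the inhibitors Smad6 and Smad7, and 1 lower, the decoy receptor Bambi (84.3 and 46.5 CPM). Hippo and TEAD genes had 4 of 16 higher, Tead1, Yap1 (4.31 and 10.3 CPM), Amot and Amotl1. In the IGF axis 3 of 9 were higher, the receptors Igf1r and Igf2r (69.9 and 105.0 CPM) and the binding protein Igfbp5. Notch genes had 3 of 11 higher, Notch2, Jag1 and Jag2, and 1 lower, Hes6 (82.3 and 52.0 CPM). All 7 tested enteroendocrine genes were higher, with over 50% of the UMIs of each in 1 cell of maternal obesity. Of the gut identity factors Cdx1 was higher, at 18.8 and 43.3 CPM, and Foxa3, Klf4 and Prdm1 lower, among 17 tested. The counts of higher genes in these lists stand against 14.6% over all genes and those of lower genes against 4.21%. The part that the differing depth and make-up of the 2 libraries has in these gaps was not tested.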

How the data were processed

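The deposited matrices hold whole UMI counts per gene and barcode, not normalized. The authors used Cell Ranger 2.1.1 per the submitters' processing notes, whereas the matrix headers name cellranger 6.1.2; genome build and annotation were not given in the sources used here. Identifiers with the same symbol (30400 identifiers, 28116 symbols) were summed, and Muc2, Hspg2 and Car4 were read under older names through RefSeq synonyms. The members and all gene lists were chosen with earlier results of these data known; 16 of the 504 listed symbols were not analysed here.

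From the counts, CPM per cell class and library were computed with Python 3.11.15 and scipy 1.17.1. Ratios of CPM have exact conditional binomial intervals and shares have Clopper-Pearson intervals (95%). Log2 ratios use a pseudocount of 0.5 UMI. A call needs 1.5-fold and 20 UMIs. No p-value was computed, since each group has 1 library. Cells were thinned to 3000 or 10000 UMIs with a fixed seed. Scrublet, in scanpy 1.11.5 with an expected 0.8% doublets per 1000 barcodes, called 60 control and 134 maternal obesity barcodes, and these were kept. The comparison classes were other epithelial cells and those past the Olfm4, distal or proximal limit. The interval and call procedure was tested on simulated data. Alternatives changed the filters, doublets, rule, scaling, pseudocount and minimum count; those without Muc2 and without the 3 endocrine cells were chosen after seeing the data.

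Genes were named if in the rule or a list; as the 20 highest and 12 lowest in both libraries against other epithelial cells, with at least 50 UMIs per library on the high side; as the 12 genes each way between libraries whose interval bound lay farthest from 1, with at least 50 UMIs and no cell holding over 20% of them, which removed 79 of 8547 genes; and as the 12 with the highest Fano factor. Rule, mitochondrial, ribosomal, haemoglobin and sex-linked genes were left out of the last 3. Results of some genes that these rules gave are not reported here.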

Additional observations from a re-analysis of the deposited data

Results flagged for a closer look

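For 15 named genes the ratio of Shh/Tdh cells to other epithelial cells was over 1.5-fold in opposite directions in the 2 libraries. The difference was not tested, with 1 library each. Values are log2 ratios, the control first. Among endocrine genes Gcg was at -8.49 and 0.76, Pyy at -8.19 and 2.96 and Neurod1 at -2.71 and 1.60, with almost all UMIs of maternal obesity in the 3 cells described above. Cck (1.96 in maternal obesity) and Scg2 (1.39) had 0 UMIs in the control, and Iapp was at -3.97 and 1.90. Among immune genes Cd74 was at -1.49 and 2.10, RT1-Da at -1.38 and 2.03, RT1-Ba at -2.01 and 2.48, in 3 cells of maternal obesity for the last pair. Slpi, a protease inhibitor, was at -3.26 and 2.76, with UMIs in 8 control and 7 maternal obesity cells. The haemoglobin gene Hbg1 was at 2.43 and -3.45, with 125 and 5 UMIs that lay in 2 cells of each library. The pioneer factor Foxa2 was at -0.88 and 1.03, with 8.90 and 11.6 CPM in Shh/Tdh cells and 16.5 and 5.71 CPM in the others. The absorptive genes Mttp (0.73 and -1.66) and Aqp8 (0.63 and -2.02) stood at 4.53 and 20.9 CPM and at 8.79 and 28.1 CPM in the others. Alpk2 was at 1.72 and -0.95.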

How the results depend on the processing

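No paired analysis was possible because each group has 1 library and the labels give them different sample numbers. For the same reason no library could be left out. Of 93 recomputed counts and shares, 76 stayed within their interval or within 1.5 times the value in the report. The share of Shh/Tdh cells in the control was 8.81% with at least 1000 genes, 2.19% at 3000 UMIs, 6.23% with both Tdh and Fscn1 required and 5.49% with 2 Shh UMIs. In maternal obesity it was 2.58% at 3000 UMIs, 9.29% at 10000 UMIs and 7.95% with 2 Shh UMIs. Genes higher in maternal obesity numbered 3769 with a minimum of 1 UMI, and genes lower 280 with at least 50 UMIs and 1836 with at least 1. Against other epithelial cells, genes higher numbered 449 with the rule at 3000 UMIs and 1365 with at least 1 UMI; genes lower numbered 220, 1038 with each cell weighted equally, 389 with at least 50 UMIs and 1545 with at least 1. At 10000 UMIs 169 genes had a Fano factor above 2. Ratios to other epithelial cells changed sign for Nefm (0.73) and Fcnb (0.38) in maternal obesity with the rule at 3000 UMIs, and for Tead1, which was at -0.058 in the control with each cell weighted equally and at -0.20 (3000 UMIs) and -0.31 (cells weighted equally) in maternal obesity. In the control, with each cell weighted equally, Dnmt3b was at -0.016 and Igfbp5 at -0.33, and in maternal obesity Igfbp5 was at -0.13 with the rule at 10000 UMIs. Aqp8 in the control was at -0.14 at 10000 UMIs, -0.19 with both Tdh and Fscn1 and -0.049 with 2 Shh UMIs. The endocrine genes in maternal obesity fell below other epithelial cells without the highest doublet scores, at 3000 UMIs, with both Tdh and Fscn1 and without the 3 hormone-rich cells: Gcg was then at -7.49, -8.38, -8.37 and -8.08, Pyy at -6.53, -6.28, -7.92 and -6.78, Cck at -3.62, -1.75, -4.71 and -4.05, and Neurod1 at -4.24, -2.49, -5.53 and -5.00. Between libraries at 3000 UMIs, Klf4 was at 0.26 and Nr4a1 at -0.23. The median of the enteroendocrine list between libraries, 3.64 in the main computation, was -4.66 without the highest doublet scores, -3.46 at 3000 UMIs and -0.93 without the 3 hormone-rich cells. The cause of these moves was not tested, beyond fewer or more genes entering at another minimum. Setting the median gene to 0 gave 68.6% of library calls as higher instead of 77.7%.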
